A study of Mus musculus with 6 samples.

Results

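The complement genes of the mouse heart were measured 3 days after myocardial infarction (MI). The set holds 32 genes, named in advance by symbol and grouped by role (classical pathway, lectin pathway and collectins, C3 and alternative pathway, terminal pathway, regulators, receptors), of 17441 genes listed in at least 1 library. No measured value entered the choice of the rule, but earlier results of these data were known when it was made. All 32 genes were found in at least 1 library and 28 in all 6.

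The tissue was heart below the ligature of male mice, 12 weeks old by the labels and on a C57BL/6 background by the methods, with 2 libraries in each of 3 groups. WT Sham mice were wild type and had a sham operation, WT MI mice were wild type and had the left coronary artery ligated, and Card9 KO MI mice carried a knockout of Card9 in all tissues, not restricted to a cell type, and had the same ligation. Card9 is an adaptor of innate immune receptors in myeloid cells. The series has no group of Card9 KO mice without infarction, so the effects of genotype and infarction cannot be told apart between Card9 KO MI and WT Sham. Neither the labels nor the methods say whether a library is 1 mouse or a pool, so p-values measure the spread between these libraries only.

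Complement is a cascade of plasma and cell-surface proteins that marks dying cells and microbes for removal. C1q starts the classical pathway, collectins and ficolins start the lectin pathway, and factor B, factor D and properdin drive the alternative pathway, and all of these meet at the cleavage of C3. The fragments C3a and C5a attract and activate leukocytes through their receptors, C3 fragments bind integrins on phagocytes, and membrane regulators limit the damage to host cells. The liver makes most plasma complement, macrophages are a main source of C1q, and in infarcted hearts complement is part of the early inflammatory reaction.

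Values are FPKM, that is fragments scaled to the length of the transcript and to the mapped fragments of the library, so levels of different genes can be set side by side. Differences are log2 fold changes of FPKM + 1 from limma, which understates changes of low genes, and a call is an adjusted p below 0.05. The text gives the libraries of a group in the order replicate 1, replicate 2. Depth was estimated at 3014594 to 4286477 fragments per library, and 3 fragments on a transcript of 2 kb were worth 0.35 to 0.498 FPKM. Card9 itself was listed at 0.99 and 1.03 FPKM for WT Sham, 3.39 and 5.08 for WT MI, and 9.85 and 6.94 for libraries with the label Card9 KO MI. The targeted gene was thus not lower in the libraries labelled as knockout, so these values do not bear out the label, and the reason was not tested. FPKM of a whole gene cannot tell a disrupted allele that still gives reads from mixed-up labels. Every direction between the infarct groups rests on that label.

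Infarction in wild-type hearts moved much of the set upward. Of the 28 complement genes with enough signal to be tested, 16 (57.1%) were called higher in WT MI than WT Sham, against 27.7% of all 13120 genes tested, and 1 (3.57%) was called lower, against 9.39%. The libraries of both groups did not overlap for 21 genes that were higher (75.0%, against 48.3% of all genes) and 2 that were lower (7.14%, against 22.1%). The median log2 fold change was 0.81 over the 28 genes and 0.19 over all genes, so the changes are to be read against a general shift of that size. C5ar2 and Itgax were below 1 FPKM in both sham libraries and entered the test through the infarct libraries alone. In bulk tissue, fewer cells of a type and less RNA per cell cannot be told apart.

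Between the infarct groups C3 was the member that passed the test. This comparison and that of WT MI against WT Sham use the same WT MI libraries. In libraries with the label Card9 KO MI, 1 of the 28 genes (3.57%) was called lower than in WT MI, against 0.587% of all genes, and limma called 0 higher, against 0.816%. At an unadjusted p below 0.05, 6 genes were higher (21.4%, against 11.5% of all genes) and 5 were lower (17.9%, against 8.57%). Libraries did not overlap for 9 higher genes (32.1%, against 30.8%) and 8 lower genes (28.6%, against 21.9%), shares near those of all genes. The median log2 fold change was 0.03, beside 0.04 over all genes.

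**Figure D1:**
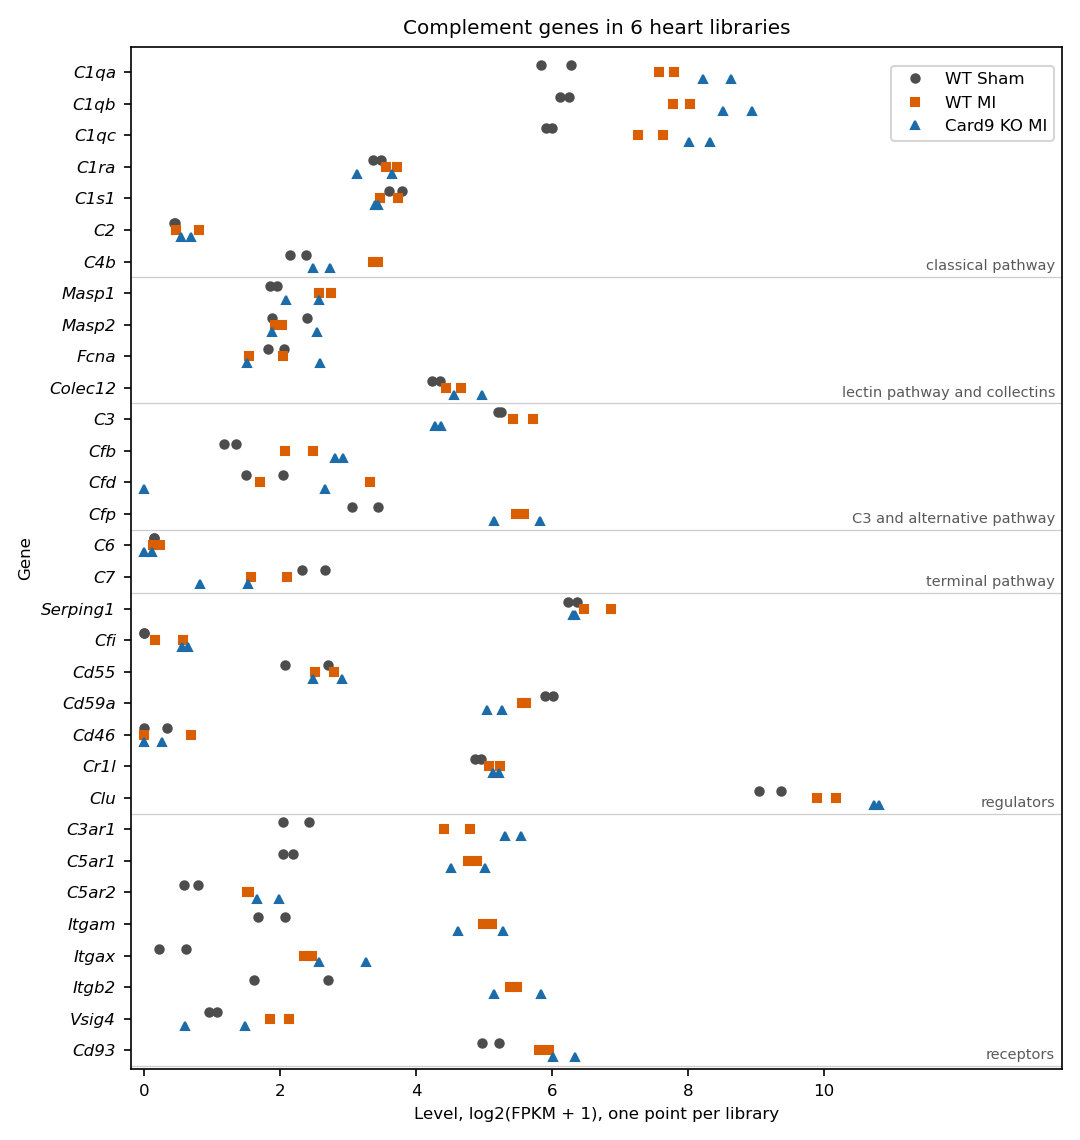
Level of each of the 32 complement genes as log2(FPKM + 1) on the horizontal axis, with 1 point per library and the genes grouped by role. The C1q chains and Clu lie in the order WT Sham (circles), WT MI (squares), Card9 KO MI (triangles), the receptors lie to the right of their sham points in both infarct groups except Vsig4, whose Card9 KO MI points lie on either side of them, and C3 is lowest in libraries with the label Card9 KO MI.

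Clu, which encodes clusterin, a chaperone that binds the terminal complex, was the most abundant member in every library and made up 46.5% to 55.0% of the summed FPKM of the set. In the group means of both infarct groups C1qb, C1qa and C1qc followed in this order, and in WT Sham Serping1 came second.

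The 3 chains of C1q rose about as strongly as each other. C1qa, C1qb and C1qc encode the subunits of the recognition molecule and lie side by side on chromosome 4 of mm9 (C1qb at chr4:136436044-136442102, C1qc at chr4:136445719-136448980 and C1qa at chr4:136451832-136454718, all on the minus strand). C1qa was at 76.32 and 56.38 FPKM for WT Sham, 188.79 and 220.90 for WT MI, and 395.55 and 295.70 for libraries with the label Card9 KO MI. C1qb was at 75.39 and 68.53, 218.04 and 261.00, and 491.12 and 364.49 FPKM in the same order of groups. C1qc was at 63.22 and 59.32, 152.79 and 196.53, and 320.43 and 257.65 FPKM. For each chain the groups were fully separated, with sham lowest and Card9 KO MI highest.

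From WT Sham to WT MI the log2 fold change was 1.62 ± 0.18 (SE) for C1qa, 1.72 ± 0.15 for C1qb and 1.49 ± 0.15 for C1qc, with limma adjusted p of 0.00049, 0.00020 and 0.00031. From WT MI to Card9 KO MI it was 0.74 ± 0.18, 0.82 ± 0.15 and 0.73 ± 0.15, and the limma adjusted p of 0.095, 0.053 and 0.061 missed the threshold. Within a library the chains kept a narrow ratio, with C1qb at 0.988 to 1.24 times C1qa and C1qc at 0.809 to 1.05 times C1qa.

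The promoters of C1qb and C1qc, whose levels moved together, and of Itgam and C3, which behaved differently from them, are shown so that they can be compared. They are the 250 bases before and 50 after the transcription start in RefSeq, on build GRCm38.p6, written 5′ to 3′ on the strand of the gene. The table held 21 of the 32 genes, and C1qa was without an entry. Capitals mark matches, on either strand, to GAGGAA (the purine-rich box of PU.1, a myeloid factor), TTNNGNAA (C/EBP type) or the NF-kB consensus.
C1qb, chr4:136886151-136886450, minus strand: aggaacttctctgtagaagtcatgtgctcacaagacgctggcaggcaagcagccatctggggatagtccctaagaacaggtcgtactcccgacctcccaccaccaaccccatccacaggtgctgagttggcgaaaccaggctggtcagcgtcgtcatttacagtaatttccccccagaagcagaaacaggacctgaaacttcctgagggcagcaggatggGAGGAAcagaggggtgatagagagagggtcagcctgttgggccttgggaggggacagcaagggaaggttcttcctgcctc
C1qc, chr4:136892865-136893164, minus strand: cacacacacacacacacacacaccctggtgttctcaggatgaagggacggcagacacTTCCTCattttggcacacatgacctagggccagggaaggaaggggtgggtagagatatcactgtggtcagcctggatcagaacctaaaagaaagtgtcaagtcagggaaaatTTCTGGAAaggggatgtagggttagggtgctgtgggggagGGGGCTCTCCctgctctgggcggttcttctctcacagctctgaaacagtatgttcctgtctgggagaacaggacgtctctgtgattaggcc
Itgam, chr7:128062390-128062689, plus strand: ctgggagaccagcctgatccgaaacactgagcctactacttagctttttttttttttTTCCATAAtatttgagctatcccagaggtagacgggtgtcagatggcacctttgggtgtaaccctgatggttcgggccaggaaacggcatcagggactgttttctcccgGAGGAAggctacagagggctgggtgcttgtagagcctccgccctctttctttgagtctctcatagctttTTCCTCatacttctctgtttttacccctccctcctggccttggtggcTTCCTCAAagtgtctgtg
C3, chr17:57228087-57228386, minus strand: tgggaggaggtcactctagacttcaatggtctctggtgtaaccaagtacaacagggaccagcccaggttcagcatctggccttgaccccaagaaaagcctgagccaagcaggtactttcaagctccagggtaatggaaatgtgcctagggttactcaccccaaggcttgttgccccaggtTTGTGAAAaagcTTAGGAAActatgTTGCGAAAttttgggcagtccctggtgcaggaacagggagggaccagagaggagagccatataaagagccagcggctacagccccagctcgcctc

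C1qb held 1 GAGGAA, 30 bases before the start, and C1qc held 1 on the opposite strand, 193 bases before it. C1qc also held a TTNNGNAA at position -81 and the NF-kB consensus at -41. Itgam held GAGGAA at -84 and, on the opposite strand, at -15 and 33, and TTNNGNAA at -193 and 33, the last of which overlaps a GAGGAA. C3 held TTNNGNAA at -70, -58 and -45, the last on both strands, and no GAGGAA. Such short motifs are common: GAGGAA was in 28.3% of 32851 promoters of this length and in 8 of the 21, TTNNGNAA in 40.7% and in 12, and the NF-kB consensus in 8.46% and in 1. STAT-type TTCNNNGAA was in 8.30% and in 3 of the 21, none of them among the 4 shown. A match is a string of letters and not a binding site.

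Of the other classical pathway genes, C4b was called in WT MI against WT Sham. It is the main mouse gene for component C4 and was at 4.21 and 3.43 FPKM for WT Sham, 9.90 and 9.29 for WT MI, and 5.65 and 4.57 for libraries with the label Card9 KO MI. It rose with infarction in wild-type hearts, by 1.14 ± 0.17 (log2 fold change ± SE, limma adjusted p = 0.0017). Card9 KO MI lay between the other groups without overlapping either, and against WT MI the difference of -0.80 ± 0.17 had an adjusted p of 0.066 in limma. C4a, a near copy of C4b, was at no more than 0.29 FPKM.

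C1ra and C1s1, the proteases that C1q carries, were not called in any comparison. C1ra was at 9.34 and 10.22 FPKM for WT Sham, 10.78 and 12.19 for WT MI, and 7.79 and 11.51 for Card9 KO MI. C1s1 was at 12.92 and 11.14, 10.08 and 12.30, and 9.88 and 9.55 FPKM. The 95% intervals of the log2 fold change of WT MI against WT Sham were -0.22 to 0.64 for C1ra and -0.44 to 0.24 for C1s1. Both have near-identical copies, C1rb (97.7% of coding bases identical, listed in no library) and C1s2 (95.7%, listed in 1 library at 0.12 FPKM), so reads could be split between them. C2, the protease of the C3 convertase, was near the limit of detection at 0.36 to 0.75 FPKM, about 2.95 to 7.96 fragments, and was not tested.

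Among the lectin pathway genes and collectins 1 of 4 (25%) was called higher in WT MI than WT Sham, near the 27.7% of all genes. Masp1, a protease of the lectin complexes, was at 2.86 and 2.62 FPKM for WT Sham, 5.72 and 4.97 for WT MI, and 4.96 and 3.24 for Card9 KO MI. It rose by 0.76 ± 0.21 in WT MI against WT Sham (limma adjusted p = 0.023), a call that was lost without any single one of the 4 libraries compared (adjusted p = 0.061 to 0.12). Masp2, the protease that cleaves C4 and C2, was at 2.67 to 4.83 FPKM and Fcna, a ficolin, at 1.86 to 4.99, and the libraries of all groups overlapped for both.

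Colec12, a scavenger receptor with a collectin domain, was at 19.33 and 17.89 FPKM for WT Sham, 24.33 and 20.77 for WT MI, and 30.37 and 22.49 for Card9 KO MI. WT MI was above WT Sham without overlap, yet the test did not call it (limma adjusted p = 0.24).

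C3, the component at which all pathways meet (chr17:57343397-57367559 of mm9, minus strand), was at 35.98 and 36.83 FPKM for WT Sham, 42.06 and 51.71 for WT MI, and 18.44 and 19.54 for libraries with the label Card9 KO MI. The infarcted wild-type hearts lay slightly above sham, and Card9 KO MI lay below every other library. Against WT MI the log2 fold change was -1.25 ± 0.12 (SE, limma adjusted p = 0.0088), and the mean of 19.0 ± 0.778 (SD, n = 2) was 0.405 times the 46.9 ± 6.82 of WT MI. Among the 77 genes called lower in this comparison C3 ranked 7 by p and 21 by log2 fold change. From WT Sham to WT MI the difference of 0.35 ± 0.12 was not called (adjusted p = 0.057).

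The C3 call rests on few libraries. Its direction was lower under every alternative run, with log2 fold changes of -1.40 to -1.11, but the limma adjusted p was 0.059 without WT MI replicate 2, and 0.059 and 0.058 without replicates 1 and 2 of Card9 KO MI. C3 and C1q parted most clearly between the infarct groups: the summed FPKM of the C1q chains was 5.97 and 5.0 times that of C3 for WT Sham, 13.3 and 13.1 times for WT MI, and 65.5 and 47.0 times for Card9 KO MI.

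Of the alternative pathway genes Cfb and Cfp rose with infarction. Cfp encodes properdin, which stabilises the C3 convertase and is made by leukocytes. It was at 7.31 and 9.80 FPKM for WT Sham, 46.85 and 43.31 for WT MI, and 55.67 and 34.51 for Card9 KO MI. Both infarct groups were far above sham and overlapped each other, and the log2 fold change of WT MI against WT Sham was 2.28 ± 0.22 (limma adjusted p = 0.00028).

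Cfb encodes factor B and lies beside C2 on chromosome 17 (chr17:34993319-34999463 of mm9). It was at 1.25 and 1.54 FPKM for WT Sham, 4.62 and 3.21 for WT MI, and 6.02 and 6.62 for Card9 KO MI, with no overlap between any of the groups. It rose by 1.02 ± 0.20 in WT MI against WT Sham (limma adjusted p = 0.0062). Between the infarct groups the difference of 0.59 ± 0.20 had an adjusted p of 0.16, so Cfb, which acts with C3, lay on the other side of WT MI from C3.

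Cfd, factor D or adipsin, is a product of fat cells. It was at 3.14 and 1.82 FPKM for WT Sham, 9.01 and 2.25 for WT MI, and 0 and 5.34 for Card9 KO MI. The libraries of all groups overlapped, and the libraries within each infarct group were further apart than the means of any groups. The fat cell genes Adipoq and Car3 also varied between libraries of a group: Adipoq was at 1.62 and 0.42 FPKM for WT MI and 0.19 and 2.38 for Card9 KO MI, and Car3 at 23.3 and 5.33, and 0.61 and 8.87. Of the 7 fat cell markers, Lep was at 0 in all libraries and Fabp4, which endothelial cells also express, was at 457 to 620 FPKM. Plin1, Cidec and Retn were at no more than 2.33 FPKM in any library, and Retn was at 0.80 and 0.83 for Card9 KO MI, unlike Cfd. The summed level of the list, most of it Fabp4, was 514 to 600 FPKM for WT Sham, 487 and 500 for WT MI, and 607 and 634 for Card9 KO MI. The part of adipose tissue in the Cfd values was not tested.

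**Figure D2:**
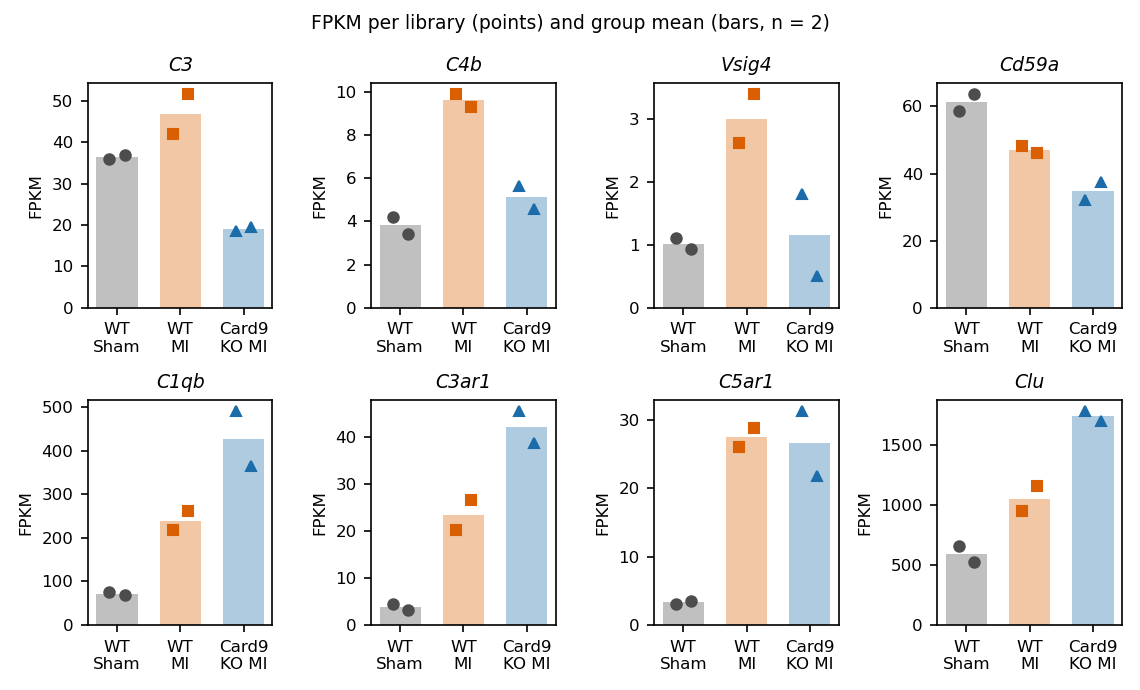
FPKM of 8 complement genes on the vertical axis, with points for the libraries and bars for the means of 2 libraries per group. C3 is lower in Card9 KO MI than in both other groups, C4b and Vsig4 peak in WT MI, Cd59a is highest in WT Sham and lowest in Card9 KO MI, C1qb, C3ar1 and Clu have the opposite order, and the infarct groups overlap for C5ar1.

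The terminal pathway was weakly expressed. C7, which anchors the membrane attack complex, was at 5.35 and 4.0 FPKM for WT Sham, 3.27 and 1.96 for WT MI, and 0.77 and 1.87 for Card9 KO MI. The groups did not overlap and each step was downward in the values, but neither WT MI against WT Sham (limma adjusted p = 0.12) nor Card9 KO MI against WT MI (0.27) passed the test. C6, which joins the complex before C7, was at 0 to 0.17 FPKM, no more than about 2.33 fragments in any library, and was not tested.

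The regulators moved in different directions. Clu (chr14:66587320-66600385 of mm9) was at 659.13 and 524.80 FPKM for WT Sham, 950.75 and 1158.34 for WT MI, and 1786.03 and 1699.21 for Card9 KO MI, with no overlap. It rose by 0.83 ± 0.14 from WT Sham to WT MI (limma adjusted p = 0.0030), and the further difference of 0.73 ± 0.14 in Card9 KO MI had an adjusted p of 0.057.

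Cd59a encodes the membrane inhibitor that stops assembly of the attack complex, and it went the other way. It was at 58.68 and 63.80 FPKM for WT Sham, 48.07 and 46.22 for WT MI, and 32.06 and 37.54 for Card9 KO MI, again with no overlap. It fell by 0.37 on the log2 scale (SE 0.11, limma adjusted p = 0.034) in WT MI against WT Sham. That call was lost without any single one of the 4 libraries compared (adjusted p = 0.061 to 0.15). Between the infarct groups the difference was -0.43 ± 0.11, with an adjusted p of 0.10.

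The summed FPKM of 9 cardiomyocyte markers also went down across the groups, from 42739 and 44518 for WT Sham to 27359 and 28034 for WT MI and 22608 and 26294 for Card9 KO MI. In WT MI against WT Sham 6 of the 9 were called lower, against 9.39% of all genes, and 1, Myh7, higher, against 27.7%. Between the infarct groups 0 were called. There 5 were lower without overlap and 0 higher (21.9% and 30.8% of all genes), and Myh6 and Myl2 overlapped. Card9 KO MI replicate 1 had the lowest value of all libraries for 7 of the 9. The part of cardiomyocytes in the Cd59a values was not tested.

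Serping1 encodes the C1 inhibitor, which blocks C1r, C1s and the MASP proteases. It was at 81.75 and 73.94 FPKM for WT Sham, 87.53 and 115.54 for WT MI, and 78.56 and 80.26 for Card9 KO MI. WT MI was the highest group and the others overlapped, and neither the 0.37 ± 0.14 of WT MI against WT Sham (limma adjusted p = 0.069) nor the -0.34 ± 0.14 of Card9 KO MI against WT MI (adjusted p = 0.22) passed the test.

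Cr1l, known as Crry, is the main mouse membrane regulator of C3 convertases. It was at 30.15 and 28.29 FPKM for WT Sham, 36.48 and 32.64 for WT MI, and 36.36 and 33.96 for Card9 KO MI, and no comparison was called. Cd55, which speeds the decay of convertases, was at 3.20 to 6.5 FPKM with overlap between all groups. For the infarct groups the 95% interval of the log2 fold change was -0.22 to 0.28 for Cr1l and -0.55 to 0.63 for Cd55.

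Cd46, a cofactor for C3b cleavage that in mice is largely confined to the testis, was at 0 in 3 libraries and at most at 0.62 FPKM. Cfi, the protease that cleaves C3b, was at 0 in both sham libraries, at 0.12 and 0.49 FPKM for WT MI and at 0.56 and 0.47 for Card9 KO MI. These are about 1.00 to 4.98 fragments, so differences of Cfi were not detectable at this depth.

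All 8 receptor genes (100%, against 27.7% of all genes) were called higher in WT MI than WT Sham. Their log2 fold changes were 0.79 to 3.28. C5ar2 and Itgax entered the test through the infarct libraries alone. Vsig4, at 1.11 and 0.93 FPKM for WT Sham, also needed an infarct library to enter it. Itgam and Itgax encode the alpha chains of complement receptors 3 and 4, and lie next to each other on chromosome 7 (chr7:135206154-135271674 and chr7:135273061-135294171 of mm9), and Itgb2 encodes their shared beta chain. Itgam was at 3.21 and 2.20 FPKM for WT Sham, 33.59 and 30.62 for WT MI, and 37.70 and 23.54 for Card9 KO MI. Itgb2 was at 5.50 and 2.06, 40.83 and 43.84, and 56.45 and 34.32 FPKM. Itgax was at 0.53 and 0.16, 4.55 and 4.11, and 8.56 and 4.95 FPKM. Both infarct groups were well above sham for all 3 genes, and they overlapped each other for Itgam and Itgb2.

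In WT MI against WT Sham the log2 fold change was 3.17 ± 0.23 for Itgam, 3.28 ± 0.35 for Itgb2 and 2.00 ± 0.27 for Itgax, with limma adjusted p of 8.0e-05, 0.00038 and 0.0011. The mean of Itgam in WT MI was 11.9 times that of WT Sham, and the sham values of Itgax rest on about 6.78 and 1.95 fragments. For the infarct groups, the 95% intervals of the log2 fold change were -0.63 to 0.43 for Itgam, -0.75 to 0.86 for Itgb2 and -0.12 to 1.12 for Itgax.

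The anaphylatoxin receptors C3ar1 (receptor of C3a) and C5ar1 (receptor of C5a) both rose with infarction and had different values in Card9 KO MI. C3ar1 was at 4.37 and 3.12 FPKM for WT Sham, 20.18 and 26.60 for WT MI, and 45.45 and 38.65 for libraries with the label Card9 KO MI, with no overlap. C5ar1 was at 3.10 and 3.58, 26.03 and 28.81, and 31.27 and 21.78 FPKM, and the infarct groups overlapped. From WT Sham to WT MI C3ar1 rose by 2.36 ± 0.19 and C5ar1 by 2.71 ± 0.18 (limma adjusted p = 0.00012 and 5.8e-05).

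Against WT MI, C3ar1 in Card9 KO MI differed by 0.83 ± 0.19 (adjusted p = 0.077 in limma), whereas the 95% interval for C5ar1 was -0.48 to 0.35. The ratio of C3ar1 to C5ar1 was 1.41 and 0.872 for WT Sham, 0.775 and 0.923 for WT MI, and 1.45 and 1.77 for Card9 KO MI, so the infarct groups were apart and sham overlapped WT MI. This difference between the receptors was not tested.

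C5ar2, a second C5a receptor that does not couple to G proteins, was at 0.74 and 0.50 FPKM for WT Sham, 1.86 and 1.90 for WT MI, and 2.96 and 2.15 for Card9 KO MI. It rose by 0.83 ± 0.22 in WT MI (limma adjusted p = 0.020), and the call was lost without WT Sham replicate 2 (adjusted p = 0.089), WT MI replicate 1 (0.083) or WT MI replicate 2 (0.083). Cd93, named early on as a C1q receptor and abundant in endothelium, was at 36.15 and 30.26, 54.95 and 61.24, and 79.78 and 63.53 FPKM, and rose by 0.79 ± 0.14 in WT MI against WT Sham (limma adjusted p = 0.0042).

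Vsig4, the immunoglobulin-type receptor of C3b on resident macrophages, was at 1.11 and 0.93 FPKM for WT Sham, 2.61 and 3.40 for WT MI, and 1.80 and 0.51 for Card9 KO MI. The libraries with the label Card9 KO MI lay on either side of the sham libraries, and both were below WT MI. It rose by 0.98 ± 0.31 in WT MI against WT Sham (limma adjusted p = 0.041), a call lost without any single one of the 4 libraries compared (adjusted p = 0.095 to 0.18). The difference of -0.95 ± 0.31 between the infarct groups was not called (adjusted p = 0.15) and rests on about 3.01 to 19.1 fragments per library.

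**Figure D3:**
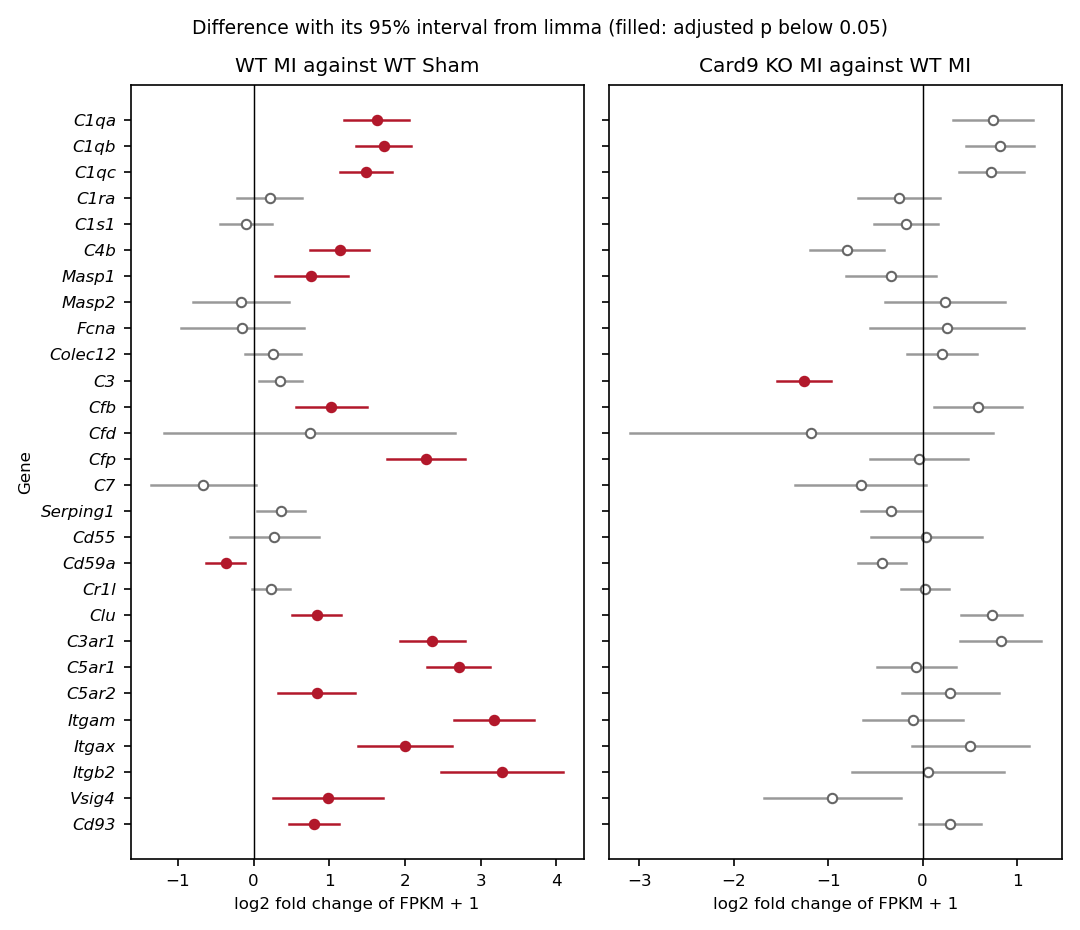
Log2 fold change of FPKM + 1 with its 95% interval from limma for the 28 tested genes, WT MI against WT Sham on the left and Card9 KO MI against WT MI on the right, with filled points for an adjusted p below 0.05. On the left 16 genes are filled to the right of 0 and Cd59a to the left, and on the right C3 is the filled point.

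Against WT Sham, libraries with the label Card9 KO MI had 14 of the 28 genes called higher (50%, against 34.8% of all genes) and 3 called lower (10.7%, against 14.3%). The 14 include C5ar2 and Itgax, which were below 1 FPKM in both sham libraries and entered the test through the infarct libraries alone. This comparison shares its libraries with both others and is not independent of them. The 3 lower genes were C3 (log2 fold change -0.90 ± 0.12, limma adjusted p = 0.00072), Cd59a (-0.80 ± 0.11, adjusted p = 0.00080) and C7 (-1.32 ± 0.30, adjusted p = 0.0077). C7 lost its call without Card9 KO MI replicate 1 (adjusted p = 0.050). C4b, Masp1 and Vsig4, which were called higher in WT MI, were not called here (adjusted p = 0.13, 0.12 and 0.95). Colec12 was called higher (0.47 ± 0.16, adjusted p = 0.041 in limma), a call lost without any single library of WT Sham or WT MI or without Card9 KO MI replicate 1 (adjusted p = 0.057 to 0.24).

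A further 31 genes of the pathway were read beside the set. Of these, 22 were listed in at least 1 library and 9 were tested, and the components C8b and C9, the mannose-binding lectins Mbl1 and Mbl2 and 5 others were listed in none. Ptx3, a long pentraxin that binds C1q, was at 0.99 and 0.17 FPKM for WT Sham, 6.56 and 7.01 for WT MI, and 6.04 and 3.02 for Card9 KO MI. It was below 1 FPKM in both sham libraries and entered the test through the infarct libraries alone. It was called higher in WT MI than WT Sham (2.35 ± 0.33, limma adjusted p = 0.0014), as was the chaperone Calr, which also binds C1q on dying cells (1.04 ± 0.10, adjusted p = 0.00024). Cd59b (-1.22 ± 0.19, adjusted p = 0.0025 in limma), the copy of Cd59a with 75.1% identity of coding bases, the collectin Colec11 (-0.91 ± 0.23, adjusted p = 0.017) and vitronectin, Vtn (-0.82 ± 0.26, adjusted p = 0.043), were called lower.

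Between the infarct groups 0 of the 9 were called by limma, and 2 (22.2%, against 8.57% of all genes) were lower at an unadjusted p below 0.05. Of these, C1qbp, a mitochondrial protein that binds C1q, was at 106.72 and 103.65 FPKM for WT Sham, 100.05 and 104.65 for WT MI, and 75.40 and 78.76 for Card9 KO MI, with a difference between the infarct groups of -0.40 ± 0.09 (adjusted p = 0.070 in limma). Like C3, it was below every WT library in Card9 KO MI.

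The complement genes were set beside markers of the cells that could carry them. The summed FPKM of 16 macrophage markers was 243 and 211 for WT Sham, 1047 and 1394 for WT MI, and 2111 and 1506 for Card9 KO MI, the order seen for C1q. In WT MI against WT Sham 13 of 16 were called higher, against 27.7% of all genes. Of these, Ccr2, at 0.85 and 0.91 FPKM for WT Sham, entered the test through the infarct libraries alone. Ms4a7, at 2.15 and 0.78 FPKM for WT Sham, also needed an infarct library to enter it. Between the infarct groups 1 of the 16, Cx3cr1, was called higher (limma adjusted p = 0.034), against 0.816% of all genes. Lyve1 was the 1 called lower (adjusted p = 0.037), against 0.587%. Libraries did not overlap for 9 higher markers and 2 lower ones, Lyve1 and Cd163 (30.8% and 21.9% of all genes). Folr2 (-0.0035 ± 0.22) and Timd4 (-0.18 ± 0.25) of the same list were not called, and their libraries overlapped. No marker of this list was at 0 in all libraries.

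Relative to the macrophage sum, C1q was at 0.883 and 0.874 for WT Sham, 0.535 and 0.487 for WT MI, and 0.572 and 0.609 for Card9 KO MI. Relative to Csf1r, the receptor that macrophages depend on, the C1q sum went the other way, at 11.2 and 11.9, 15.4 and 18.9, and 18.0 and 16.8. Lyz2 made up 54.5% to 62.3% of the macrophage sum. The mean of WT MI was 2.09 times that of WT Sham for Csf1r and 5.26 times for Lyz2, so the direction depends on the marker chosen. The infarct groups overlapped by the second measure and were slightly apart by the first. The part of macrophage number in the levels of C1q, C3ar1 and the other leukocyte genes was not tested.

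**Figure D4:**
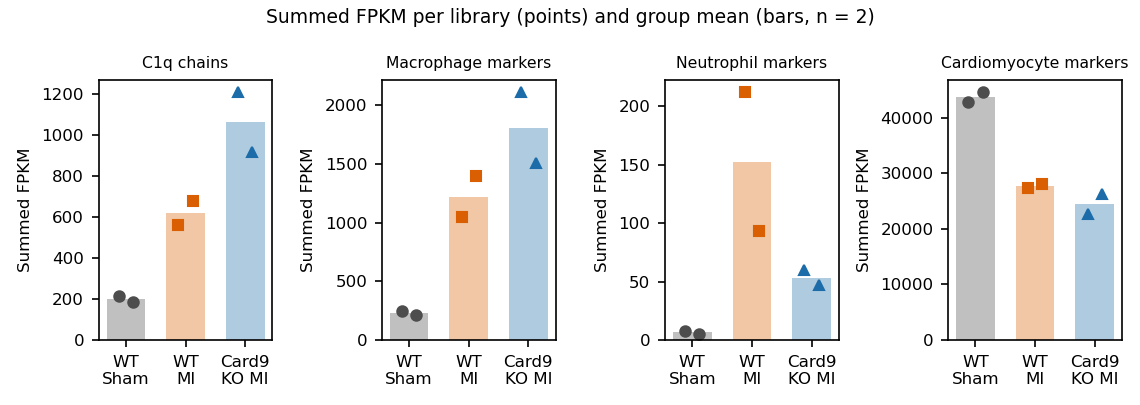
Summed FPKM of the C1q chains and of macrophage, neutrophil and cardiomyocyte marker lists on the vertical axes, with points for libraries and bars for the means of 2 libraries per group. The C1q and macrophage sums rise from WT Sham to WT MI and are highest in Card9 KO MI, neutrophil markers peak in WT MI at 212 and 93.2, and cardiomyocyte markers are highest in WT Sham.

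The 12 neutrophil markers summed to 7.64 and 5.40 FPKM for WT Sham, 212 and 93.2 for WT MI, and 59.9 and 46.7 for Card9 KO MI. The 6 that passed the filter were called higher in WT MI than WT Sham, against 27.7% of all genes. Retnlg and Mmp8 were below 1 FPKM in both sham libraries and passed it through the infarct libraries alone. S100a8 (1.75 and 0.91 FPKM for WT Sham) and S100a9 (2.06 and 0.72) also needed an infarct library to pass it. None was called between the infarct groups by limma, though all 6 were lower in Card9 KO MI without overlap, against 21.9% of all genes. Of the list, Ly6g, Camp and Elane were at 0 in all libraries, where a gene missing from the deposited values counts as 0. Itgam, Itgb2, C5ar1 and Cfp, which neutrophils share with macrophages, had overlapping infarct groups, while the macrophage sum was higher and the neutrophil sum lower in Card9 KO MI. The part of each cell type was not tested.

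The 10 fibroblast markers, genes of cells that also make C3 and C1s, summed to 954 and 953 FPKM for WT Sham, 1789 and 2299 for WT MI, and 3401 and 3291 for Card9 KO MI. Between the infarct groups 3 of the 10 were called higher, against 0.816% of all genes, and 1, Gsn, was called lower, against 0.587%. Libraries did not overlap for 6 higher markers and 2 lower ones, Pdgfra and Gsn (30.8% and 21.9% of all genes). Col1a1, Col1a2, Col3a1 and Postn weighed most in the sum of Card9 KO MI. The part of fibroblasts in the C3 values was not tested. The 6 hepatocyte markers summed to 1.16 to 3.29 FPKM, with Alb at no more than 0.59 and Cps1 at 0 in every library, beside 18.4 to 51.7 FPKM of C3.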

How the data were processed

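RNA-seq values of mouse hearts, sampled below the ligature, were taken as deposited. Per the methods, the authors used TRIzol for extraction, made libraries from enriched mRNA for an Illumina HiSeq, mapped clean reads to mm9 with BWA and Bowtie2, and calculated FPKM; the submitters' processing notes name the same tools. The deposited FPKM values, 1 per NCBI gene number, have 2 decimals and list genes above 0; missing genes were set to 0. The annotation and strand setting behind the counting are not given in the sources used here. FPKM is relative to the library total, so abundant genes shift the others. Samples were grouped by their labels.

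Gene numbers were matched to symbols for 17390 of 17441 genes (GRCm38.p6 table, names only). Positions are from the GENCODE annotation of mm9, and promoters from RefSeq on GRCm38.p6. limma 3.58.1 in R 4.3.3 (lmFit, eBayes with trend) was fitted to log2(FPKM + 1) of the 13120 genes with at least 1 FPKM in at least 2 libraries, with the 3 groups in 1 fit and Benjamini-Hochberg adjustment over all of them. The test was checked on simulated data. With 2 libraries against 2, an exact permutation test cannot reach 0.05 and none was run. Summaries used Python 3.11.15, numpy 2.4.6 and pandas 2.3.3.

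Depth was estimated from the steps between low FPKM values. With it, 72.6% to 76.0% of low values were whole fragments within 0.15, so counts were not rebuilt. Fragment numbers cover counting error only.

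All 32 members are named, with values per library for those that changed most by role, departed from the rest or lay near the detection limit, and other pathway genes where they passed a test or came near it; 1 of these is not reported here. The members and lists were chosen with earlier results of these data known. As alternatives, 0.1 or 5 was added to FPKM in place of 1, the filter was dropped or set at a mean of 5 FPKM, values were scaled by upper quartile or quantiles, the fit was restricted to the compared groups or run without trend, calls also had to reach a fold change of 2, the replicate number entered as a block, and each library was left out.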

Additional observations from a re-analysis of the deposited data

How the results depend on the processing

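With 2 libraries per group, single libraries decide several calls. When each library was left out in turn, the number of complement genes called higher was 13 to 16 in WT MI against WT Sham, 0 in each case for Card9 KO MI against WT MI and 13 to 15 for Card9 KO MI against WT Sham, and the number called lower was 0 to 1, 0 to 1 and 2 to 3. In WT MI against WT Sham, quantile normalization gave 2 lower genes, and eBayes without trend or a required fold change of 2 gave 0. In Card9 KO MI against WT MI, 3 genes were called higher with an added FPKM of 5 or with a mean FPKM of at least 5 and 2 with quantile normalization, and 2 were called lower with an added FPKM of 5 or with quantile normalization and 0 without a filter, where the adjusted p of C3 was 0.055. In Card9 KO MI against WT Sham, a required fold change of 2 left 1 lower gene. Except for the construction of the fold rule and the filters, the cause was not tested. The replicate numbers do not pair the libraries (correlations of deviations -0.0083 to 0.020); with the replicate block calls were 15 higher and 1 lower for WT MI against WT Sham, 0 and 1 for Card9 KO MI against WT MI, and 14 and 3 for Card9 KO MI against WT Sham. For single genes with a p below 0.05, 0 of 280, 163 and 266 alternative values in the 3 comparisons turned direction, 25, 4 and 11 lost a call, and 3, 10 and 0 gained one. The median log2 fold change of all genes in WT MI against WT Sham was 0.19, and moved to 0.0039 under upper-quartile scaling and -0.09 under quantile normalization. C2, C6, Cfi and Cd46 were left out of the test by the filter and entered it only without a filter.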
